A study of Mus musculus with 8 samples.

Results

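The cystatin genes described here are Cstl1, Cst3, Cst8, Cst9, Cst11, Cst12 and Cst13, a group of 7 genes known from the testis, the epididymis and, for Cst3, most tissues. They were chosen by symbol: a gene was read where a transcript cluster of the array (a set of probes for 1 transcript region) carried its symbol alone, and on the cluster with the highest mean where there were several. Of the 7 genes, 6 had such a cluster, each of them a single one, among 19938 genes named in this way, and Cst8 was not analysed here. The mean level was the measured value that the rule read, so with 1 cluster per gene it selected nothing between genotypes. The family was, however, picked with earlier results of these arrays known, and at least Cstl1 and Cst12 had stood out in them, so the calls below describe these arrays and are not independent support.

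Total RNA of round spermatids, which are haploid male germ cells not yet elongated into sperm, was measured on 8 Affymetrix arrays, 2 per genotype, from adult C57BL/6 mice that differed at Miwi (Piwil1). MIWI is a PIWI protein that binds piRNAs in meiotic and haploid male germ cells. By the notation of the labels, MIWI -/- had only null alleles, MIWI -/KI had a null allele beside a knock-in, MIWI +/KI had the knock-in beside a wild-type allele, and MIWI +/- had a null allele beside a wild-type one. What the knock-in changes is left unsaid in the labels; in the study's published description it alters the catalytic triad of MIWI. The MIWI +/- control thus carried 1 null allele itself, and arrays of mice with wild-type alleles only were not analysed here. The spermatids came from gradient fractions that were pooled before extraction, and no source used here says if an array holds 1 animal or several. The p-values therefore measure the spread between preparations, which may be partly technical.

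Cystatins are small, mostly secreted proteins, and the classical members bind and block cysteine proteases of the papain family such as the cathepsins. Cst3, cystatin C, is such an inhibitor, made by nearly all cells. Cst8, Cst9, Cst11 and Cst12 belong to the CRES subgroup, named after its first member, an epididymal protein; this subgroup lacks residues that the classical members use to inhibit papain-like proteases. In the mouse the genes lie together on chromosome 2.

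Intensities on the arrays had medians between 66.6 and 71.8 and upper quartiles between 208 and 234, and precision is limited by there being 2 arrays a genotype. Piwil1 itself had intensities of 196 and 151 in MIWI -/-, 672 and 696 in MIWI -/KI, 680 and 749 in MIWI +/KI, and 389 and 371 in MIWI +/-, so the null arrays were the lowest; the position of the probes relative to either mutation was not examined. Across all clusters, r between log2 values was 0.970 to 0.995 for the 4 pairs of like genotype and 0.960 to 0.988 for the 24 unlike pairs. The MIWI -/KI pair was the one at 0.970. All 15 of 15 round spermatid markers lay above the array median in at least 1 array, with summed intensities between 17383 and 19733.

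Cstl1, cystatin-like 1, a secreted member of the family known mainly from the testis, differed most. Its intensity was 85.7 and 74.5 in MIWI -/-, 129 and 169 in MIWI -/KI, 490 and 403 in MIWI +/KI, and 1282 and 1289 in MIWI +/-. No 2 genotypes overlapped, and the order of the genotypes was the same from either array. How many other genes separate in this way was not counted. In MIWI -/- the gene stood just above the array median, brighter than 56.3% and 51.9% of all clusters, and in MIWI +/- it was brighter than 95.5% and 95.6% of them.

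Cst13, a testis gene of the same cluster, had intensities of 223 and 193 in MIWI -/-, 324 and 464 in MIWI -/KI, 491 and 407 in MIWI +/KI, and 1011 and 1277 in MIWI +/-. The MIWI -/- arrays were the lowest and the MIWI +/- arrays the highest. The MIWI -/KI and MIWI +/KI arrays overlapped, which for Cstl1 they did not.

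Cst12, also called CRES3 and described in Sertoli cells, the supporting cells of the seminiferous tubule, was much dimmer. Its intensity was 64.3 and 32.8 in MIWI -/-, 49.0 and 46.3 in MIWI -/KI, 53.3 and 55.2 in MIWI +/KI, and 117 and 110.0 in MIWI +/-. The MIWI +/- arrays alone lay above their array medians, and the MIWI -/- arrays spanned the values of both knock-in genotypes.

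Cst9, testatin, was first described in the supporting cells of the fetal testis. It had 150.3 and 49.4 in MIWI -/-, 94.9 and 84.5 in MIWI -/KI, 99.2 and 117 in MIWI +/KI, and 269.9 and 229.5 in MIWI +/-. Again the MIWI +/- arrays were above all others, and again MIWI -/- replicate 1 was higher and replicate 2 lower than every array of the other mutant genotypes.

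Cst3 had intensities of 1166 and 870.1 in MIWI -/-, 1148 and 901 in MIWI -/KI, 882 and 1046 in MIWI +/KI, and 1156 and 984 in MIWI +/-, and all 4 genotypes overlapped. Cst11, CRES2, a gene of the epididymal epithelium, lay between 35.4 and 49.0 in all 8 arrays, below the median of every array. It too overlapped in all genotypes.

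**Figure D1:**
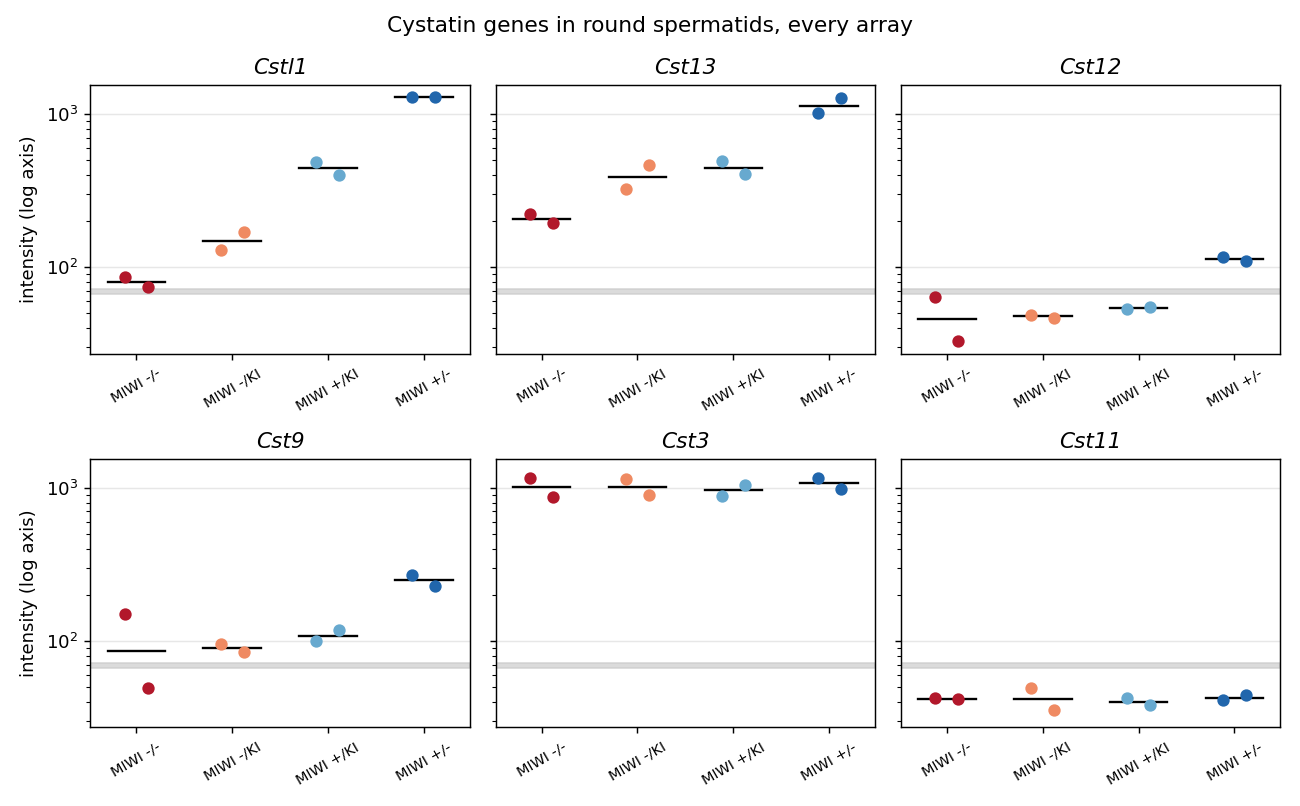
Intensity (log axis) of the 6 cystatin genes in every array, by genotype. Points are arrays, black bars the mean of the 2 log2 values of a genotype, and the grey band the range of the 8 array medians (66.6 to 71.8). Cstl1 steps up across the 4 genotypes without overlap, Cst12 and Cst9 are above the rest in MIWI +/- only, and Cst3 and Cst11 stay level.

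Set in order of their mean log2 levels, the genotypes ran from low to high MIWI -/-, MIWI -/KI, MIWI +/KI and MIWI +/- for Cstl1 and Cst13. For Cst12 and Cst9 the mean log2 levels had this order too, but MIWI -/- and MIWI -/KI were nearly level. They were 5.52 and 5.57 for Cst12 and 6.43 and 6.48 for Cst9. In the means of the intensities MIWI -/- was above MIWI -/KI for both of these genes. For Cstl1 the means of the intensities were 80.1 ± 7.88 in MIWI -/-, 149 ± 28.1 in MIWI -/KI, 446 ± 61.5 in MIWI +/KI and 1285 ± 4.48 in MIWI +/- (SD, n = 2 each). For Cst13 they were 208 ± 20.9 in MIWI -/-, 394 ± 99.0 in MIWI -/KI, 449 ± 59.2 in MIWI +/KI and 1144 ± 188 in MIWI +/- (SD, n = 2 each), with the middle pair within each other's spread. For Cst12 the means were 48.5 ± 22.3 in MIWI -/-, 47.7 ± 1.89 in MIWI -/KI, 54.2 ± 1.34 in MIWI +/KI and 114 ± 5.09 in MIWI +/- (SD, n = 2 each), and for Cst9 99.8 ± 71.4, 89.7 ± 7.36, 108 ± 12.7 and 250 ± 28.5 in the same 4 genotypes. In these the SD of the MIWI -/- pair covered the means of both knock-in genotypes, so only the step to MIWI +/- stood clear of the spread.

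The first comparison set null alleles alone against 1 wild-type allele. In MIWI -/- against MIWI +/-, Cstl1 fell by 4.01 on the log2 scale (SE 0.19, adjusted p = 3.66e-05 in limma), which is 16.1-fold lower or 6.22% of the MIWI +/- level. Cst13 fell by 2.46 (SE 0.22, adjusted p = 0.000741), 5.48-fold lower, and Cst12 fell by 1.31 (SE 0.28, adjusted p = 0.0387), 2.47-fold lower. Thus 3 of the 6 measured genes passed the threshold, all lower, where 4.73% of all 35512 clusters passed it in either direction and 2.52% as lower. The median difference of the 6 genes was -1.42, against 0.01 over all genes.

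For Cst9 and Cst12 the MIWI -/- arrays lay far apart. Cst9 differed by -1.53 (SE 0.44, 95% interval -2.53 to -0.53, adjusted p = 0.105) and did not pass; without MIWI -/- replicate 1 it differed by -2.33 (adjusted p = 0.00411), and without replicate 2 by -0.73 (adjusted p = 0.198). The call of Cst12 was lost without MIWI -/- replicate 2 (-0.82, adjusted p = 0.0819), and also without any 1 of the MIWI +/KI or MIWI +/- arrays, with adjusted p between 0.0828 and 0.211. Cstl1 and Cst13 passed with each array left out. Cst3 (-0.08, 95% interval -0.54 to 0.38) and Cst11 (-0.02, interval -0.42 to 0.39) did not pass. The interval of Cst3 excludes a fall of the size seen in the 3 called genes, while Cst11 lay below the array median in all arrays and could hardly show one.

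With a knock-in allele in place of 1 null allele the same 3 genes were called. In MIWI -/KI against MIWI +/-, Cstl1 fell by 3.12 (SE 0.19, adjusted p = 0.000179), 8.72-fold lower. Cst13 fell by 1.55 (SE 0.22, adjusted p = 0.00677), 2.93-fold lower, and Cst12 fell by 1.25 (SE 0.28, adjusted p = 0.0440), 2.38-fold lower. Of all clusters, 4.87% passed in either direction and 2.27% as lower, and the median of the 6 genes was -1.36, against -0.00 over all genes. This comparison shares its MIWI +/- arrays with the one above.

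Cst9 differed by -1.48 (SE 0.44, adjusted p = 0.119) and did not pass, although both MIWI -/KI arrays were well below both MIWI +/- arrays; it passed (adjusted p = 0.00660 and 0.00658) when either MIWI -/- array was left out of the shared estimate of spread, and with only these genotypes in the fit (adjusted p = 0.0266). The call of Cst13 was lost without MIWI +/- replicate 2 (-1.38, adjusted p = 0.0762). That of Cst12 was lost without any 1 array of MIWI -/KI, MIWI +/KI or MIWI +/-, with adjusted p between 0.0609 and 0.234. Cst3 (-0.07, adjusted p = 0.939) and Cst11 (-0.03, adjusted p = 0.976) did not pass.

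**Figure D2:**
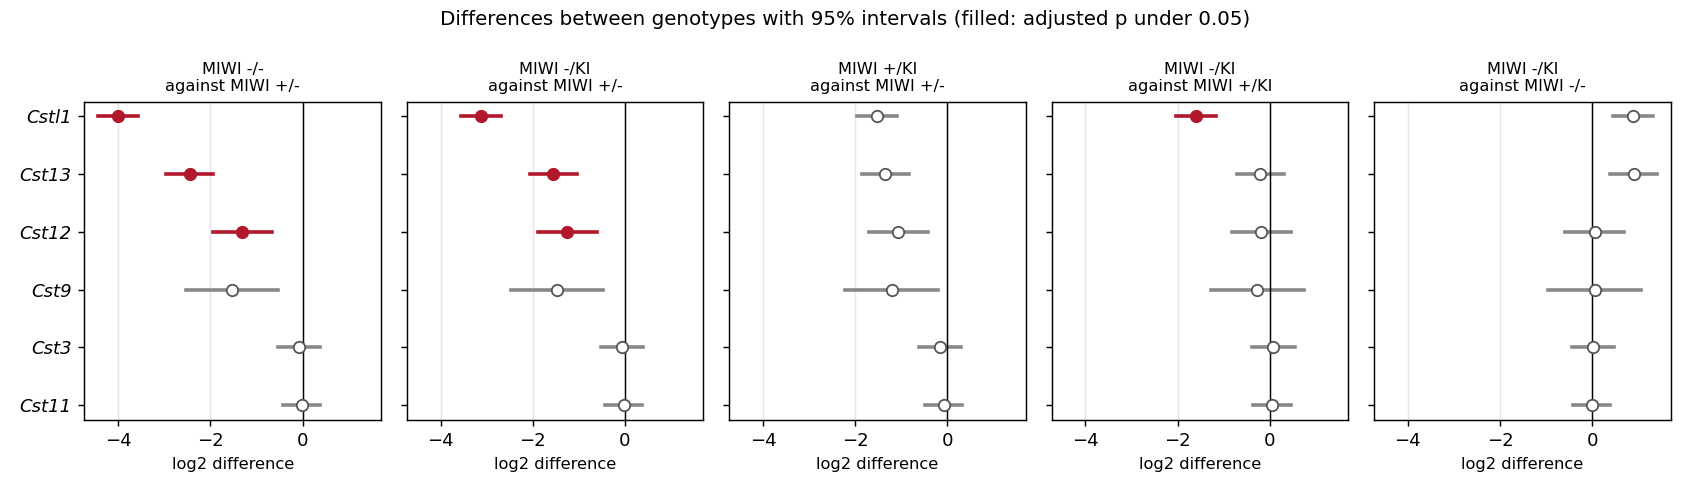
Difference of mean log2 intensity (points) with its 95% interval (lines) for the 6 cystatin genes in 5 comparisons of genotypes, first named minus second. Filled points passed the threshold of adjusted p under 0.05: 3 genes in MIWI -/- and 3 in MIWI -/KI, each against MIWI +/-, and Cstl1 in MIWI -/KI against MIWI +/KI.

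Where the knock-in allele was common to both sides, Cstl1 was the 1 gene of the 6 that was called. In MIWI -/KI against MIWI +/KI it fell by 1.59 (SE 0.19, 95% interval -2.03 to -1.16, adjusted p = 0.00861), 3.01-fold lower, where 1.87% of all clusters passed in either direction and 0.929% as lower. The call did not survive leaving out MIWI +/KI replicate 1 (adjusted p = 0.140) or replicate 2 (adjusted p = 0.0735), and with only these genotypes in the fit (0.0677). Cst13 differed by -0.21 (95% interval -0.71 to 0.30, adjusted p = 0.687), Cst12 by -0.19 (interval -0.83 to 0.46) and Cst9 by -0.27 (interval -1.27 to 0.74). None of these passed, and the interval of Cst13 excludes a difference as large as that of Cstl1. The median of the 6 genes was -0.20, against -0.03 over all genes.

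Between the genotypes with a wild-type allele the means of 4 genes lay apart as well, but the test called 0 of 6. In MIWI +/KI against MIWI +/-, Cstl1 differed by -1.53 (SE 0.19, adjusted p = 0.0577), Cst13 by -1.35 (SE 0.22, adjusted p = 0.100), Cst12 by -1.07 (SE 0.28, adjusted p = 0.212) and Cst9 by -1.21 (SE 0.44, adjusted p = 0.338). In all 4 genes both MIWI +/KI arrays lay below both MIWI +/- arrays, but the share of all genes separated in this way was not counted. With limma, 0 of 6 genes passed, where 0.0648% of all clusters did (0.0422% as lower), and 4 of 6 had an unadjusted p under 0.05, as had 2335 of the 19938 genes. The same 4 genes passed with array weights and with only these genotypes in the fit, settings under which 7.46% and 7.14% of all clusters passed. The median of the 6 genes was -1.14, against 0.02 over all genes.

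Between the genotypes without a wild-type allele, MIWI -/KI against MIWI -/-, 0 of 6 genes passed, as did 0.0% of all clusters. Cstl1 differed by 0.88 (SE 0.19, 95% interval 0.45 to 1.32) and Cst13 by 0.90 (SE 0.22, interval 0.40 to 1.41). In each of them both MIWI -/KI arrays lay above both MIWI -/- arrays, a separation not counted over all genes. The unadjusted p of Cstl1 and Cst13 in limma, 0.00161 and 0.00344, were the ones under 0.05 among the 6 genes. Of the 19938 genes 908 had such a p, and the adjusted p of both Cstl1 and Cst13 was 0.998. Cst12 (0.05) and Cst9 (0.06) differed little in the mean, with MIWI -/- arrays on either side of the MIWI -/KI arrays. The median of the 6 genes was 0.05, against -0.01 over all genes.

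Averaged over the null and the knock-in background, arrays without a wild-type allele were set against arrays with one. Cstl1 fell by 2.80 (SE 0.13, adjusted p = 2.81e-05) and Cst13 fell by 1.33 (SE 0.16, adjusted p = 0.00200), so 2 of 6 genes passed, both lower, where 6.46% of all clusters passed in either direction and 2.85% as lower. Cst12 (-0.75, adjusted p = 0.0679) and Cst9 (-0.90, adjusted p = 0.156) did not. Whether the effect of losing the wild-type allele depended on the other allele was tested as the difference between MIWI -/KI minus MIWI +/KI and MIWI -/- minus MIWI +/-. It was 2.42 for Cstl1 (SE 0.27, adjusted p = 0.0711), 2.25 for Cst13 (SE 0.31, adjusted p = 0.0721), 1.12 for Cst12 (adjusted p = 0.321) and 1.26 for Cst9 (adjusted p = 0.483). With limma, 0 of 6 genes passed, where 0.00282% of all clusters did; 3 of the 6 had an unadjusted p under 0.05, as had 2585 of the 19938 genes.

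Within an array, the log2 difference between a pair of genes is free of any factor that multiplies all values of the array. A background that adds to the values does not cancel. Cstl1 in MIWI -/-, and Cst12 and Cst9 in several arrays, lay near or below the array median, where it could hide a movement. Cstl1 minus Cst13 was -1.38 and -1.37 in MIWI -/-, -1.33 and -1.46 in MIWI -/KI, -0.00 and -0.02 in MIWI +/KI, and 0.34 and 0.01 in MIWI +/-. The 4 arrays without a wild-type allele thus lay together, below the 4 arrays with one, and the sets did not overlap. Cstl1 alone separated these sets too, and how many other pairs of genes do so was not counted. The level of the difference depends on the probes and carries no meaning of its own. Cst12 minus Cst9 was -1.22 and -0.59 in MIWI -/-, -0.95 and -0.87 in MIWI -/KI, -0.90 and -1.09 in MIWI +/KI, and -1.20 and -1.06 in MIWI +/-. Here the genotypes overlapped, and the widest gap was that between the MIWI -/- arrays.

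**Figure D3:**
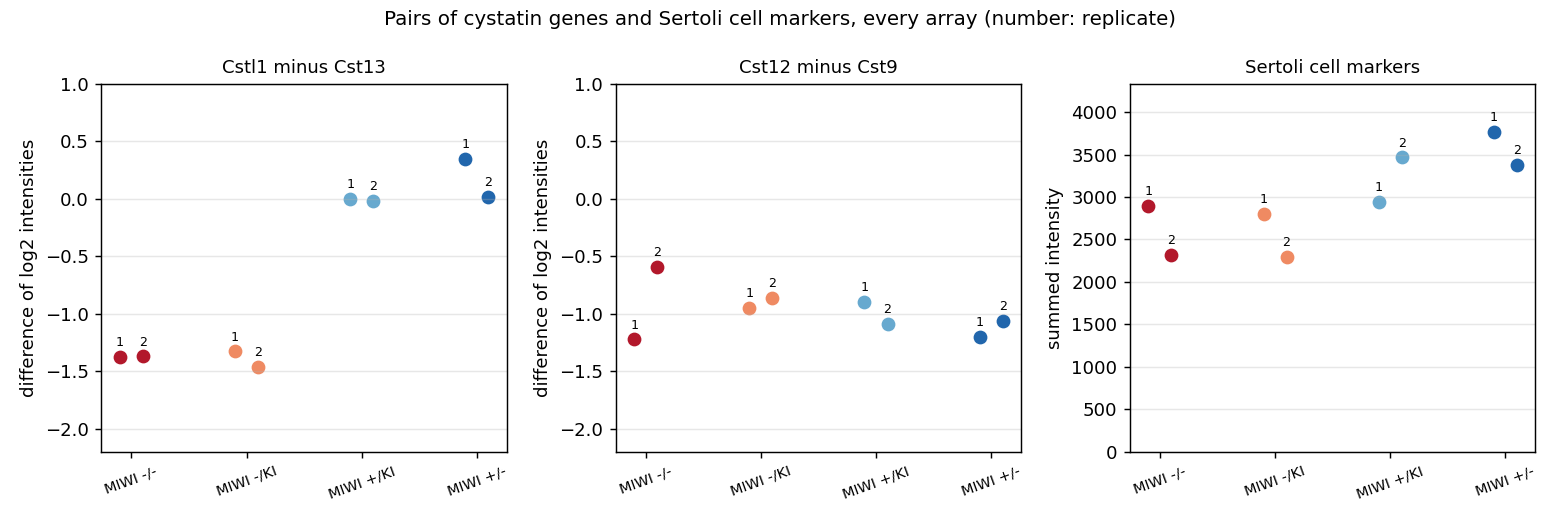
Difference of log2 intensities of Cstl1 and Cst13 (left) and of Cst12 and Cst9 (middle) in every array, and the summed intensity of 23 Sertoli cell markers (right), by genotype, with replicate numbers above the points. Cstl1 minus Cst13 is below -1.3 in the 4 arrays without a wild-type allele and near or above 0 in the 4 arrays with one.

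Over the 8 arrays, log2 values of Cst9 and Cst12 correlated with r = 0.986 and those of Cstl1 and Cst13 with r = 0.950, while Cst3 had an r of 0.088 with Cstl1 and 0.079 with Cst13. These points share the genotypes and the array, and the values are a description. Among 3887 genes with an SD of at least 0.3 on the log2 scale, the genes most like Cstl1 were Glrx2 (r = 0.998), a mitochondrial glutaredoxin, Gm136 (0.997) and Cep85l (0.996). Those most like Cst13 were Pdzk1 (0.993), a scaffold protein, Ddi1 (0.990) and Zc2hc1b (0.989). Cst12 and Cst9 were each among the 3 genes most like the other: Cst12 had Hax1 (0.988), Cst9 (0.986) and Riiad1 (0.985), and Cst9 had Cst12 (0.986), Gsta4 (0.963) and Hax1 (0.963). Cst3 and Cst11 varied less than that limit themselves (SD 0.18 and 0.14), and the gene most like each had r = 0.927 (Nme2) and 0.893 (Olfr1148).

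The windows around the transcription starts of Cstl1 and Cst13 are shown because these genes moved furthest. RefSeq (GRCm38.p6) gave a window of 250 bases before to 50 after the start for 5 of the 6 measured genes. Those of Cstl1 (chr2:148750111-148750410) and Cst13 (chr2:148819849-148820148), both on the + strand, read as follows from 5′ to 3′, with the longest word they share in capitals.
Cstl1: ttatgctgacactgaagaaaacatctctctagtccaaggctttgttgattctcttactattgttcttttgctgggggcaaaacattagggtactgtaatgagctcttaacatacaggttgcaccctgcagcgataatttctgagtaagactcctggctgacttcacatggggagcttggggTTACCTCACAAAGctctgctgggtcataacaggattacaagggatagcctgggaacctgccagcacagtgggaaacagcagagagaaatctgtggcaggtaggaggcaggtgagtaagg
Cst13: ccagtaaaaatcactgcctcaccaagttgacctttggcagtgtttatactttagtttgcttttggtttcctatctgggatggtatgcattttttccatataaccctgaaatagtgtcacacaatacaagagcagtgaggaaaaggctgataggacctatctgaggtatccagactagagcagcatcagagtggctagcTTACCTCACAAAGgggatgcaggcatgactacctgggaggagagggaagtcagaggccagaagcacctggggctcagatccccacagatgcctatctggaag
The word TTACCTCACAAAG, 13 letters long, began 69 bases before the start in Cstl1 and 52 before it in Cst13, on the same strand. On either strand it was found in 4 of 32851 windows of the same length (0.0122%), the others being those of Rsbn1 and Gm34475. It was the longest of the words shared by any pair of the 5 windows; the next was of 11 letters, in Cst12 and Cst3 on opposite strands. The word was picked after the sequences were seen, and the match is a description. The cAMP response element TGACGTCA, whose binding factor CREM acts in round spermatids, was in 0 of the 5 windows and in 1.79% of all, and its core TGACG in 0 of 5 and 20.8% of all, on either strand and counting the full element too. A TATAAA was in the window of Cst13 alone, on the opposite strand 208 bases before the start, and in 13.6% of all windows.

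The genes in and beside the cystatin cluster did not share the pattern of Cstl1 as a block. In chromosome order the measured genes were Cstl1, Cst11, Cstdc1, Cst12, Cst13, Cst9, Cstdc2 and Cst3, with Cst11 next to Cstl1 and at a low level throughout. Of 12 neighbours outside the gene set, 0 passed in MIWI -/- against MIWI +/-, with 5 below the array median in all arrays. As 4.73% of all clusters passed there, 0 of 12 is near that share. The median difference of the 12 neighbours was -0.02, against 0.01 over all genes. Cstdc1, a cystatin domain gene that lies between Cst11 and Cst12, had 30.4 and 26.7 in MIWI -/-, 35.0 and 28.8 in MIWI -/KI, 34.9 and 32.2 in MIWI +/KI, and 43.9 and 40.4 in MIWI +/-. All these values lay below the array medians, and its difference of -0.56 in MIWI -/- against MIWI +/- did not pass (adjusted p = 0.0905). Cstdc2, between Cst9 and Cst3, differed by 0.35 (adjusted p = 0.708).

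On the far side of Cstl1, Napb, a gene of vesicle fusion, and Gzf1, a zinc finger gene, were higher in MIWI -/KI. Napb had 55.3 and 74.2 in MIWI -/KI, above each of the 6 other arrays. It rose by 0.85 in MIWI -/KI against MIWI +/- (adjusted p = 0.0314) and by 1.02 against MIWI +/KI (adjusted p = 0.0303), while Cstl1 fell in both. Gzf1 rose by 0.95 against MIWI +/- (adjusted p = 0.0443), with 2 of the 12 neighbours called there, as were 4.87% of all clusters. Neither rose in MIWI -/- against MIWI +/- (-0.00 and -0.05).

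**Figure D4:**
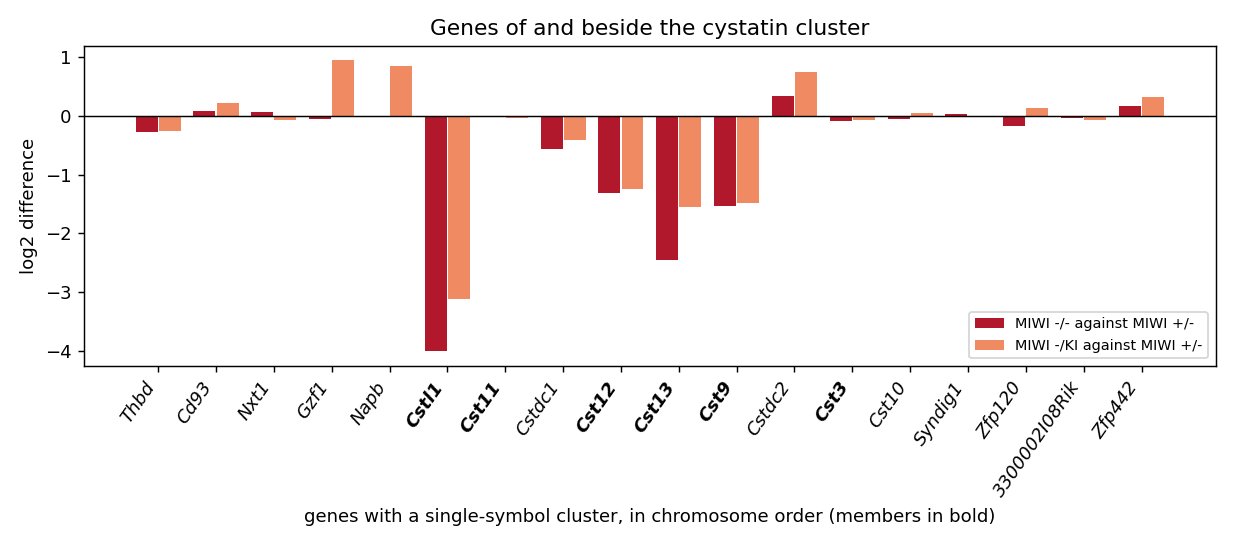
Difference of mean log2 intensity in MIWI -/- (dark) and MIWI -/KI (light), each against MIWI +/-, for the 18 measured genes in and beside the cystatin cluster on chromosome 2, in chromosome order and not to scale. Bars start at 0. Cstl1, Cst12, Cst13 and Cst9 point down in both, and Cst11 and Cst3, which lie among and beyond them, stay near 0.

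Other genes of the cystatin superfamily were 18 of 29 listed, among them stefins, kininogens and fetuins, and all 18 lay below the array median in all 8 arrays. In each of the 5 comparisons between 2 genotypes, 0 of 18 passed, with medians between -0.11 and 0.02. Csta3, a stefin A gene with close relatives, fell by 0.61 without against with a wild-type allele (adjusted p = 0.0246), at low levels of 22.3 to 25.0 without and 30.3 to 43.9 with one. Of 13 papain-family cysteine proteases and legumain, the enzymes that classical cystatins bind, 0 passed in MIWI -/- against MIWI +/-, with a median of -0.00. Ctsh, cathepsin H, was the 1 called in MIWI -/KI against MIWI +/- and rose by 0.95 (adjusted p = 0.0367), with 82.6 and 121 in MIWI -/KI against 55.1 and 48.4 in MIWI +/-. It also rose without against with a wild-type allele, by 0.67 (adjusted p = 0.0310).

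Cst12 and Cst9 are known from Sertoli cells, so markers of those cells stand beside them here. Of 24 Sertoli cell markers 23 were measured, 8 of them below the array median in all arrays and 0 at 0. Their summed intensity was 2898 and 2321 in MIWI -/-, 2800 and 2292 in MIWI -/KI, 2939 and 3467 in MIWI +/KI, and 3771 and 3375 in MIWI +/-. The sum was lowest in the arrays without a wild-type allele, though 2898 in MIWI -/- replicate 1 was close to 2939 in MIWI +/KI replicate 1. MIWI -/- replicate 1 was above replicate 2, as for Cst12 and Cst9. Bright markers weigh most in a sum. Among them, Clu had 499 and 344 in MIWI -/- and 729 and 667 in MIWI +/-. Aard had 227 and 155 in MIWI -/- and 425 and 402 in MIWI +/-. In MIWI +/KI, where Cst12 and Cst9 were below both MIWI +/- arrays, the sum overlapped with that of MIWI +/-.

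In MIWI -/- against MIWI +/- the median of the Sertoli markers was -0.17 and 1 of 23 passed, Aard, which fell by 1.14. In MIWI -/KI against MIWI +/- it was -0.31 and 2 of 23 passed, Aard (-1.17) and the defensin Defb19 (-1.12), both lower. In MIWI +/KI against MIWI +/- it was -0.05 and 0 passed. Without against with a wild-type allele Defb19 (-0.94), Aard (-0.89) and Wt1 (-0.56) passed. Of all clusters, 4.73%, 4.87%, 0.0648% and 6.46% passed in these comparisons, in the same order. The part of Sertoli cells in the falls of Cst12 was not tested, and in bulk RNA fewer cells of a type and less RNA per cell cannot be told apart.

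Leydig cell markers also differed between the MIWI -/- arrays: their sum over 6 of 8 listed genes was 1022 in replicate 1 and 449 in replicate 2, against 746 and 726 in MIWI -/KI, 343 and 475 in MIWI +/KI, and 514 and 397 in MIWI +/-. It was thus high where Cst12 and Cst9 were the higher of the MIWI -/- pair, but not in MIWI +/-, where both genes were highest, and its part was not tested. The sum of 11 spermatocyte markers was also higher in MIWI -/- replicate 1 (7315) than in replicate 2 (5777). That of 10 peritubular, vascular and stromal markers was lower in replicate 1 (1395) than in replicate 2 (1739). Of 28 epididymal markers measured, out of 30, 23 lay below the array median in all arrays, with sums between 1003 and 1205, beside the low level of Cst11. Lcn5, an epididymal lipocalin, lay between 38.7 and 46.2. Defb21, a further epididymal marker, fell in MIWI -/- (-0.70) and in MIWI -/KI (-0.74), each against MIWI +/-.

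The remaining marker lists also held calls in MIWI -/- against MIWI +/-, where 1222 of all 19938 genes passed in either direction. Of 15 round spermatid markers Tssk2 fell (-1.004) and Acr rose (0.77), and of 11 spermatocyte markers Syce2 fell (-1.49) and Piwil2 rose (0.99). Of 8 blood and macrophage markers Aif1 (-1.10) and Alas2 (-0.92) fell, of 10 peritubular, vascular and stromal markers Acta2 rose (0.68), and of 8 spermatogonia markers 0 passed. Most of the difference in the blood sum lay in Aif1. The sum was 1269 and 1266 in MIWI -/-, 1434 and 1314 in MIWI -/KI, 1629 and 1516 in MIWI +/KI, and 2222 and 2080 in MIWI +/-, in the genotype order of Cstl1. Aif1 alone made up 789 and 732 of it in MIWI -/- and 1680 and 1578 in MIWI +/-, and the median of the 8 blood markers in MIWI -/- against MIWI +/- was -0.08. The part of such cells in the cystatin levels was not tested. Except for Acr, the same genes passed in MIWI -/KI against MIWI +/- in the same direction.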

How the data were processed

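The authors deposited 1 linear intensity per transcript cluster and array, made with RMA per the submitters' processing notes; no source used here gives its version. Log2 of each intensity was taken. In 8 cells of 8 clusters a whole number lay over 100 times above the median of the other arrays, and these were treated as missing; none was in a gene named here. Clusters were named through the platform annotation. No detection call was used, and cross-hybridisation between family members was not examined.

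For the 7 comparisons a single limma 3.58.1 model (R 4.3.3) was fitted on all 8 arrays, with 1 mean per genotype and a trend of variance on intensity; it had 4 residual degrees of freedom and a prior worth 3.98. Two-sided p-values were adjusted by Benjamini and Hochberg's method over 35512 clusters and called under 0.05. The script was tested on simulated data. Genes named beside the members were those of the marker, superfamily, protease and neighbour lists past the threshold, at most 4 per list, and the 3 most correlated genes of each member. Cstdc1, Cstdc2 and Lcn5 were chosen after their values were seen. Members and lists were chosen with earlier results of these data known. Alternatives were arrays left out, a replicate block, array weights, other scaling, filters, variance model and gene summary.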

Additional observations from a re-analysis of the deposited data

How the results depend on the processing

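Of 442 values of the 6 genes under settings that kept all arrays of the genotypes compared, 409 kept their direction and side of the threshold, 25 newly passed it, 5 lost it and 3, all close to 0, changed sign. Those were Cst11 in MIWI -/- against MIWI +/- with a further quantile step (0.00011), and, with arrays centred on their medians, Cst11 in MIWI -/KI against MIWI -/- (0.0026) and Cst3 without against with a wild-type allele (0.025). Only the quantile step, the centring and the log2 of the value plus 16 altered the differences themselves. Under the other settings their direction was fixed by construction, and only the p-values could move. The lost calls were Cst12 in MIWI -/- against MIWI +/- with only these genotypes in the fit (adjusted p = 0.0954) or arrays centred (0.0502), Cst12 in MIWI -/KI against MIWI +/- with array weights (0.109) or arrays centred (0.0589), and Cstl1 in MIWI -/KI against MIWI +/KI with only these genotypes (0.0677), which left 0 genes called. Cst9 newly passed in both mutants against MIWI +/- without dim clusters (0.0377 and 0.0458) and with gene means (0.0141 and 0.0176), and in MIWI -/KI also with only the genotypes compared (0.0266), where 1.85% of clusters passed. Without dim clusters 12.7% and 11.9% of the clusters kept passed in these comparisons, and with gene means 10.3% and 9.74% of all genes. In MIWI +/KI against MIWI +/- 4 of the genes passed with only these genotypes or with array weights, 3 with gene means, 2 without dim clusters and 1 with log2 of the value plus 16. Of all features tested, 7.14%, 7.46%, 1.82%, 0.895% and 0.0676% passed under these settings, in the same order. With gene means 4 passed without against with a wild-type allele; over all genes 2540 of 19938 (12.7%) did. The difference of differences had 2 with gene means (2.96% of all genes) and 2 without dim clusters (1.37% of the clusters kept), a filter that removed Cst11 and Cst12 themselves. Fewer features tested is part of the construction of both settings; for the others the cause was not tested.

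Counts of clusters called moved by over 1.5 times as follows. Array weights gave 2548 in MIWI -/- against MIWI +/- (1679 as reported), 1041 in MIWI -/KI against MIWI +/- (1730), 386 in MIWI -/KI against MIWI +/KI (665), 2650 in MIWI +/KI against MIWI +/- (23) and 2 in the difference of differences (1). With only the genotypes compared there were 658 in MIWI -/KI against MIWI +/-, 2537 in MIWI +/KI against MIWI +/- and 126 between MIWI -/KI and MIWI +/KI. Without dim clusters there were 1299 in MIWI -/KI against MIWI +/KI, 159 in MIWI +/KI against MIWI +/-, 6 between MIWI -/KI and MIWI -/- (0) and 244 in the difference of differences. With gene means these comparisons had 1384, 362, 5 and 590. In MIWI +/KI against MIWI +/-, a quantile step gave 1 and centring 0. Centring gave 0 in the difference of differences. Without the intensity trend there were 3 in MIWI -/KI against MIWI -/- and 0 in the difference of differences.

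With 1 array left out, clusters called ranged from 509 to 2907 in MIWI -/- against MIWI +/-, from 479 to 4578 in MIWI -/KI against MIWI +/-, from 47 to 4493 in MIWI -/KI against MIWI +/KI, from 0 to 38 in MIWI +/KI against MIWI +/-, from 0 to 24 in MIWI -/KI against MIWI -/-, from 912 to 5115 for arrays lacking a wild-type allele against the others, and from 0 to 380 in the difference of differences. Of the 6 genes, 1 to 4 were called in MIWI -/KI against MIWI +/-, 0 to 1 in MIWI -/KI against MIWI +/KI, 0 to 1 in MIWI +/KI against MIWI +/-, 2 to 4 for arrays lacking a wild-type allele, and 0 to 4 in the difference of differences. Some differences changed sign. Cst3 ran from -0.29 to 0.13 and Cst11 from -0.072 to 0.036 in MIWI -/- against MIWI +/-, and they ran from -0.24 to 0.11 and from -0.26 to 0.21 in MIWI -/KI against MIWI +/-. In MIWI -/KI against MIWI +/KI they ran from -0.093 to 0.26 and from -0.18 to 0.29, with Cst13 from -0.47 to 0.053. In MIWI -/KI against MIWI -/- Cst3 ran from -0.20 to 0.22, Cst9 from -0.75 to 0.86, Cst11 from -0.24 to 0.22 and Cst12 from -0.43 to 0.54. Without against with a wild-type allele Cst3 ran from -0.11 to 0.11 and Cst11 from -0.10 to 0.13, and in the difference of differences from -0.046 to 0.38 and from -0.16 to 0.31.

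Deviations of same-numbered arrays had no common direction over the 6 pairs of genotypes (correlations between -0.26 and 0.30), so the numbers were not taken as pairs. The highest correlation, 0.30, was that of MIWI -/- with MIWI +/-. With the replicate number as a block, 1617 clusters were called in MIWI -/- against MIWI +/-, 1615 in MIWI -/KI against MIWI +/-, 555 in MIWI -/KI against MIWI +/KI, 0 in MIWI +/KI against MIWI +/- and 0 in the difference of differences, and the same member genes. Crossing the numbers in MIWI -/KI against MIWI -/-, chosen after seeing the data, gave 0. With 2 arrays per genotype and no detection calls, the values of Cst11, Cst12 and the other dim genes say little below the array median.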
